A study of Mus musculus with 6 samples.

Results

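Basement membranes are thin sheets of matrix on which epithelia, endothelia and the cells of the early embryo rest. They are built from a laminin network and a collagen IV network, which nidogens and the proteoglycan perlecan tie together. Collagens are triple helices made of 3 alpha chains, and laminins are heterotrimers of 1 alpha, 1 beta and 1 gamma chain, so each protein needs several of the genes described here. Other collagens form the fibrils, the beaded filaments and the anchoring fibrils of connective tissue.

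The genes were the collagen chains, the laminin chains, Nid1, Nid2, Hspg2 and Sparc, chosen by symbol alone from a table of mRNA levels. They numbered 59 of the 22969 distinct gene names in the table: 44 collagens, 11 laminins and the other 4. RNA-seq had been done on mouse E14Tg2a embryonic stem cells, a single ESC line used at passages 37 to 40 in both conditions. ESCs kept pluripotent with leukemia inhibitory factor (LIF) gave 3 samples, and neuronal cells (NCs), made from the same line as monolayers without LIF in 1 μM retinoic acid (RA) for 48 h (2 days), gave the other 3 samples. The table holds 1 FPKM value per gene and condition (sequenced fragments per kilobase of a transcript, relative to all mapped ones), pooled over the samples of a condition. It carries no values of single samples, so no difference has a replicate check, no SD can be given and nothing was tested.

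Levels are FPKM, which is per length and can be compared between genes. Differences are the ratio of NC to ESC on the FPKM + 0.1 scale, which understates the differences of low genes. A gene was counted as higher or lower in NCs where its mean FPKM over both conditions was at least 1 and this ratio was at least 2-fold. The 12782 genes past that filter had a median log2 ratio of -0.04, and the FPKM of all genes summed to 770586 in ESCs and 628672 in NCs. Scaling both conditions to the same sum therefore adds 0.29 to a log2 ratio. How many fragments each sample gave is unknown. The worth of 1 fragment in 1 kb was taken as the commonest low value, scaled by length, of genes with 1 annotated transcript. A fragment length of 200 bases was assumed, and only a narrow fixed range of values was searched, which bounds the result. The worth came to 0.0138 FPKM in ESCs versus 0.0135 FPKM in NCs. Every gene of the set past the filter then had at least 100.0 fragments in each condition. This estimate was added after seeing the data and covers counting error only.

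Collagen mRNA was higher in NCs, laminin mRNA was at nearly the same summed level in both conditions, and both nidogens were lower in NCs. Of the 33 genes of the set past the filter, 16 were at least 2-fold higher in NCs (48.5%, against 10.7% of all genes past the filter) and 4 were at least 2-fold lower (12.1%, against 9.65% of all genes). All 16 of the higher genes were collagens. The median log2 ratio of the 33 was 0.99. After scaling to equal sums, 19 were higher (background 15.9%) and 2 were lower (background 6.57%), so that the higher genes were 90.5% of those counted in place of 80%. Of the 33, 11 lay under 1 FPKM in 1 condition and had passed through the other one. Among the 22 genes with at least 1 FPKM in both conditions, 9 were higher and 2 lower (40.9% and 9.09%), with a median log2 ratio of 0.35, where the 11715 such genes of the whole table had 7.21% higher, 7.69% lower and a median of -0.05. Over all 59 genes, 42 had the larger FPKM in NCs and 17 in ESCs. The summed FPKM of the 59 was 597 in ESCs and 851 in NCs, a share of 0.0775% and 0.135% of the FPKM of all genes. In bulk RNA from whole cultures, fewer cells of a type and less RNA per cell cannot be told apart.

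**Figure D1:**
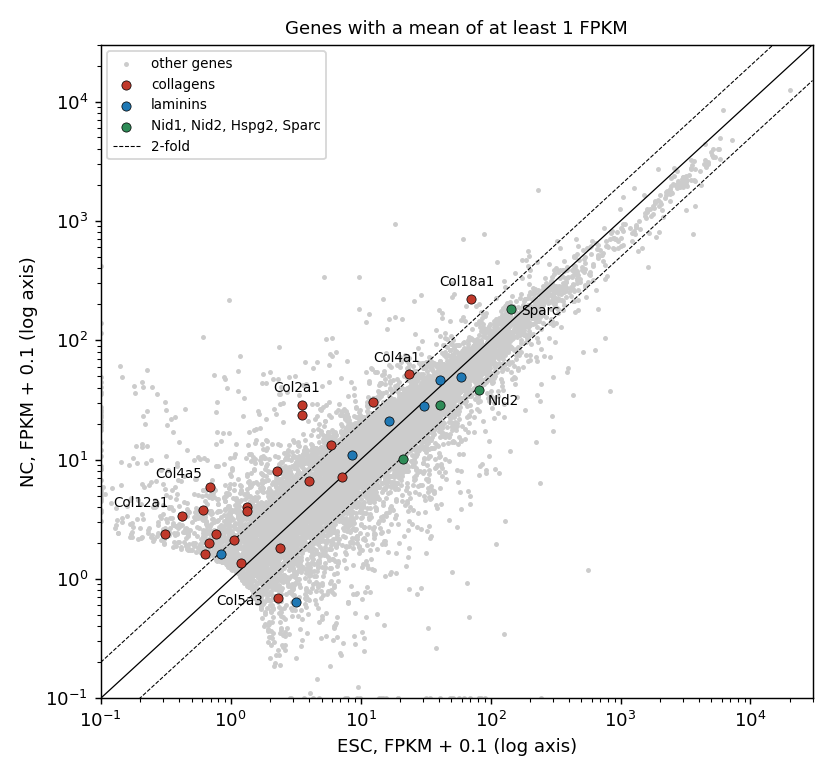
ESC against NC FPKM + 0.1 (both axes log) for the 12782 genes with a mean FPKM of at least 1, 1 point per gene, with collagens in red, laminins in blue and Nid1, Nid2, Hspg2 and Sparc in green. The solid line marks equal levels and the dashed lines 2-fold differences. The red points lie mostly above the upper dashed line, the blue ones mostly between the dashed lines, with Col5a3, Nid1 and Nid2 below the lower one.

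Collagen IV is the network-forming collagen of basement membranes, and its genes lie in pairs that are transcribed away from each other. All 4 collagen IV genes past the filter were higher in NCs, those of each pair by a similar factor. Col4a1 and Col4a2, whose chains form the collagen IV found in nearly every basement membrane, occupy chromosome 8 from 11198423 to 11312826 (minus strand) and from 11312805 to 11449287 (plus strand) in mm10. Col4a5 (chromosome X, 141475385 to 141689234, plus strand) and Col4a6 (chromosome X, 141165403 to 141474076, minus strand) encode chains of more restricted basement membranes. The promoter windows of these genes, 250 bases before to 50 bases after the start, are shown because the genes of each pair are transcribed away from each other. They are from RefSeq on GRCm38.p6, the assembly that mm10 denotes, each 5′ to 3′ on the strand of its gene, with 3 promoter elements in capitals where they occur on either strand. The GC box is spelled GGGCGG. The next element, known as the CCAAT box, is spelled by its own name, and the TATA box is spelled TATAAA:
Col4a1, chr8:11312777-11313076, minus strand: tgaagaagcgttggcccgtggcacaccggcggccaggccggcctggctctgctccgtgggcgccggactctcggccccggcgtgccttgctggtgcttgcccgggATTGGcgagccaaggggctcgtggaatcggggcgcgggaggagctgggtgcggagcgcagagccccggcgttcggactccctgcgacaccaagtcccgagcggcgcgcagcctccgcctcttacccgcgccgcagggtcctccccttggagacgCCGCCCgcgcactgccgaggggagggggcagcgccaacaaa
Col4a2, chr8:11312555-11312854, plus strand: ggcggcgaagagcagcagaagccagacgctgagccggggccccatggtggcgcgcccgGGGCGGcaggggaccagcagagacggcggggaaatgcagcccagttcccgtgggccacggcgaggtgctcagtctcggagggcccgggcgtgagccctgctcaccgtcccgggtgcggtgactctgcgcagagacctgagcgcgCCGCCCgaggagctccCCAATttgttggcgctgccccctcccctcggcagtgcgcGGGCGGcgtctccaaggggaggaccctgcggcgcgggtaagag
Col4a5, chrX:141475169-141475468, plus strand: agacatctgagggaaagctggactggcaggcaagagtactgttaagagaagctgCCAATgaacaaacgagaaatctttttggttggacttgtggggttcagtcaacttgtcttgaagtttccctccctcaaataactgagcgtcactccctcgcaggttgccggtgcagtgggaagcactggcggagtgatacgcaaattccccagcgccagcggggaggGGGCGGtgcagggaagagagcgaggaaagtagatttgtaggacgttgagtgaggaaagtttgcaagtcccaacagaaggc
Col4a6, chrX:141474027-141474326, minus strand: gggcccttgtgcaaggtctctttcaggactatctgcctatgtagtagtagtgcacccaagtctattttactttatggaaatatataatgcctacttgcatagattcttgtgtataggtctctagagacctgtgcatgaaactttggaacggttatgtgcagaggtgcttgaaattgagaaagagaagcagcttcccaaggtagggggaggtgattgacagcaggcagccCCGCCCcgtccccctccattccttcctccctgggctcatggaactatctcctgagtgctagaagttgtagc

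The starts of Col4a1 and Col4a2 in these windows were 21 bases apart, and the windows shared 78 bases, which hold 1 GC box. Those of Col4a5 and Col4a6 were 1343 bases apart and shared 0 bases. The first pair of windows was 74.0% and 73.7% G and C, the second 52.7% and 48.3%, where the median window of the table had 52.7%. No TATA box was found in any of the 4. In all, 43 of the 59 genes had a window, with 47 windows among them. A GC box stood in 28 of the 47 (59.6%) and in 35.6% of all 32817 windows of the same length, and a CCAAT box in 15 (31.9%, against 37.4%). A TATA box stood in 5 (10.6%, against 13.6%). The half-site of RA receptors, AGGTCA, was in 8 windows (17.0%, against 16.3%), and the direct repeat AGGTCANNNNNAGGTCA was in 0 of the 47 and in 3 of all windows. Both strands were searched, the half-site also matches within the repeat, and a match describes these letters and not a bound site.

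Col4a1 was the third most abundant gene of the set in NCs, with 51.8 FPKM, 2.20-fold higher than the 23.5 FPKM of ESCs. Col4a2 was 2.48-fold higher, at 12.3 FPKM in ESCs compared with 30.5 FPKM in NCs. The ratio of Col4a1 to Col4a2 was 1.91 in ESCs and 1.70 in NCs. Their common trimer holds more of the Col4a1 product. Col4a5 stood at 0.588 FPKM in ESCs versus 5.77 FPKM in NCs, 8.53-fold higher. Col4a6 stood at 0.214 and 2.29 FPKM, 7.61-fold higher, and the ratio of Col4a5 to Col4a6 was 2.75 in ESCs and 2.52 in NCs. The X-linked pair thus differed more between the conditions than the chromosome 8 pair, from a much lower level. The remaining pair, Col4a3 and Col4a4 on chromosome 1, whose chains join that of Col4a5 in the kidney glomerulus, was barely detected, at 0.0126 and 0.00313 FPKM in ESCs and 0.0510 and 0.0753 FPKM in NCs.

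Among the fibrillar collagens, which make the banded fibrils of connective tissue and cartilage, 6 of the 9 genes past the filter were higher in NCs, 1 was lower and 2 were within 2-fold. Col2a1 (chromosome 15, 97975602 to 98004695), the main collagen of cartilage and of the embryonic notochord, was at 3.46 FPKM in ESCs compared with 28.6 FPKM in NCs, 8.08-fold higher. Col1a2 (chromosome 6, 4504814 to 4541544) was 6.57-fold higher, at 3.47 and 23.3 FPKM. Its partner in type I collagen, Col1a1 (chromosome 11, 94936224 to 94953042), was 2.23-fold higher, at 5.78 and 13.0 FPKM. The ratio of the type I chains therefore turned over: Col1a1 was 1.67 times Col1a2 in ESCs and 0.558 times Col1a2 in NCs, whereas the trimer holds more of the Col1a1 product. Col3a1 (chromosome 1, 45311538 to 45349706), the collagen of vessel walls and other elastic tissue, stood at 0.514 FPKM in ESCs versus 3.67 FPKM in NCs, 6.14-fold higher. Col11a1, a cartilage collagen that also sets fibril size, had 1.23 and 3.87 FPKM and was 2.99-fold higher. Col27a1 had 0.533 and 1.53 FPKM and was 2.58-fold higher, though within 2-fold with a pseudocount of 1 FPKM.

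Type V collagen, which controls the width of type I fibrils, differed in direction between its chains. Col5a1 had 3.88 FPKM in ESCs compared with 6.55 FPKM in NCs (1.67-fold higher, within the 2-fold limit), and Col5a2, the neighbour of Col3a1 on chromosome 1, had 1.11 and 1.25 FPKM (1.12-fold). Col5a3 (chromosome 9, 20770050 to 20815067) was the 1 collagen counted as lower, at 2.21 FPKM in ESCs versus 0.595 FPKM in NCs, 3.33-fold lower. Col5a1 would count as higher after scaling to equal sums. Col11a2 and Col24a1 stayed under the filter.

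The FACIT collagens, which sit on the surface of fibrils and link them to other matrix, were split. Col12a1 (chromosome 9, 79598991 to 79718831), which decorates type I fibrils, stood at 0.320 FPKM in ESCs compared with 3.28 FPKM in NCs, 8.06-fold higher. Col22a1, known from tissue junctions such as that of muscle and tendon, had 0.575 and 1.89 FPKM and was 2.94-fold higher, again within 2-fold with a pseudocount of 1 FPKM. By contrast, the type IX chains of cartilage fibrils did not go with Col2a1. Col9a2 had 7.07 FPKM in ESCs versus 6.98 FPKM in NCs, a 1.01-fold lower value that turns to a higher one after scaling to equal sums or centring on the median, and Col9a3 had 2.32 and 1.71 FPKM, 1.33-fold lower. Exons of Col9a3 are overlapped over 6.07% of their bases by Tcfl5 on the opposite strand, and reads from the overlap could come from either gene. Col9a1, Col14a1, Col16a1, Col19a1 and Col20a1 were under the filter.

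Col18a1 (chromosome 10, 77052178 to 77166548, minus strand) was the most abundant collagen in both conditions. It encodes type XVIII collagen, a basement membrane collagen with heparan sulfate chains from whose end the fragment endostatin is released. Its level was 71.1 FPKM in ESCs compared with 222 FPKM in NCs, 3.12-fold higher, and it moved from the third to the first place among the 59 genes. It held 47.3% of all collagen FPKM in ESCs and 51.2% in NCs. The summed FPKM of the 44 collagens was 150 in ESCs and 434 in NCs, and without Col18a1 it was 79.2 and 212, so the difference between conditions did not rest on this gene. The related Col15a1 was under the filter.

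Collagen VI, which forms beaded filaments next to basement membranes, was represented by Col6a1, with 0.669 FPKM in ESCs versus 2.29 FPKM in NCs (3.11-fold higher, but within 2-fold with a pseudocount of 1 FPKM), and by its neighbour Col6a2, with 1.24 and 3.59 FPKM (2.74-fold higher). The long chains that complete this collagen did not go with them. Col6a3 stood at 0.0755 and 0.0573 FPKM, Col6a4 at 0.530 and 0.142 FPKM, and Col6a5 and Col6a6 were also under the filter with the lower value in NCs. Col26a1 (chromosome 5, 136741759 to 136883209), a collagen known from testis and ovary, was 3.55-fold higher, at 2.15 and 7.91 FPKM. Col7a1, the collagen of the anchoring fibrils of skin, had 0.969 FPKM in ESCs compared with 2.02 FPKM in NCs. Its 1.99-fold ratio lay just inside the limit, and it counted as higher when no pseudocount was added, after scaling or centring, or with a limit of 1.5-fold.

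The remaining collagens stayed under the filter: the transmembrane collagens Col13a1, Col17a1, Col23a1 and Col25a1, the short-chain collagens Col8a1, Col8a2 and Col10a1, and Col28a1. Together with the laminins named next, 26 of the 59 genes were under it, with values between 0.00313 and 1.33 FPKM. Of these, 18 had the larger value in NCs and 8 in ESCs. None was listed at 0, but 2 were at or under the level of 3 fragments in ESCs and 1 in NCs. The highest of the values was that of Col23a1 in NCs, 1.33 FPKM against 0.259 FPKM in ESCs.

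**Figure D2:**
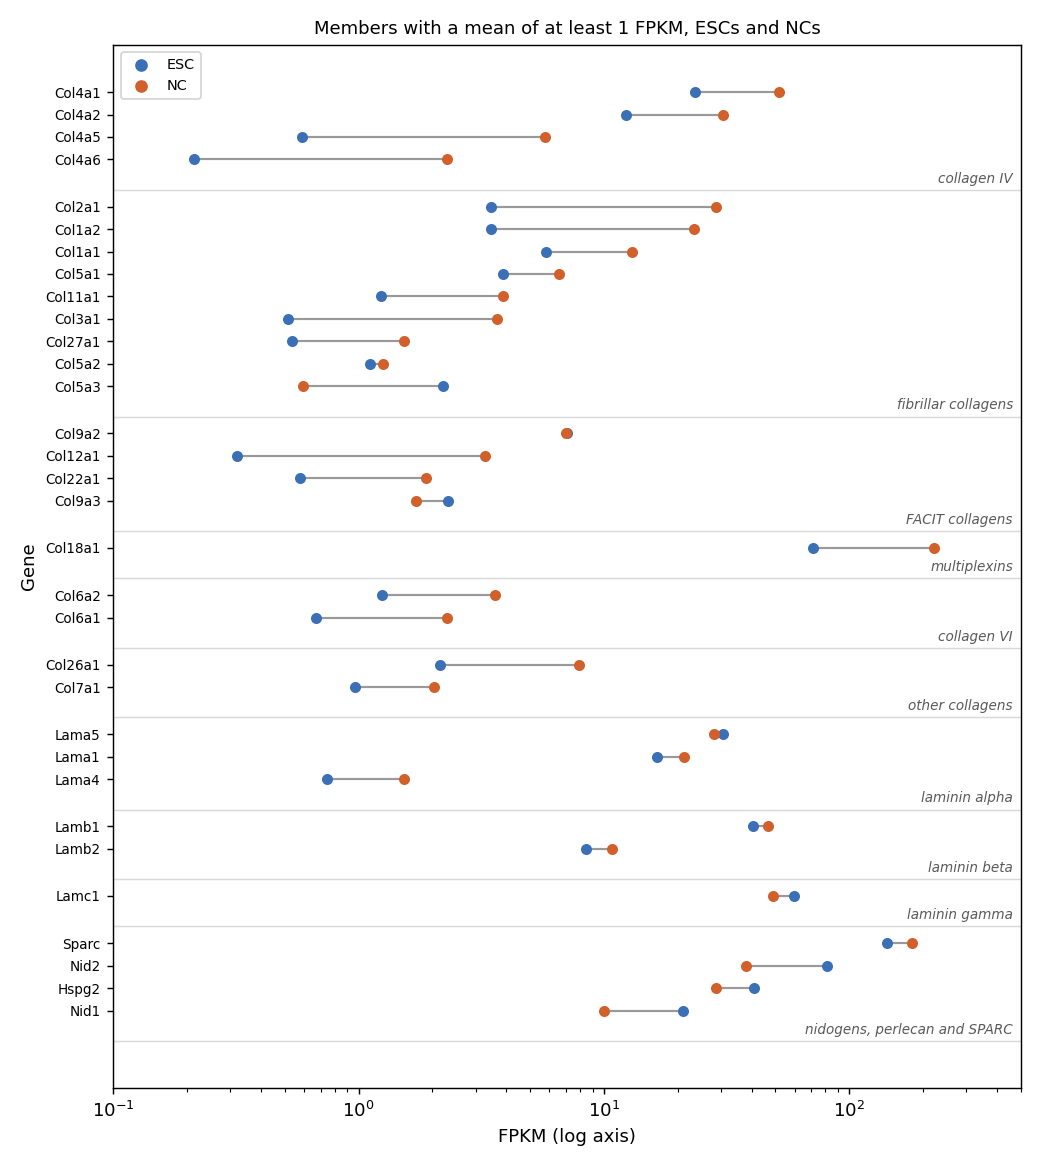
FPKM (log axis) in ESCs (blue) and NCs (orange) of genes of the set with a mean FPKM of at least 1, grouped by protein family, 1 pooled value per condition and no error bars because the table holds no values of single samples. The orange point lies to the right for most collagens, the points nearly coincide for most laminins, and the orange point lies to the left for Nid1, Nid2, Hspg2 and Col5a3.

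Most laminin genes differed little between the conditions. Of the 7 past the filter, 0 were counted as higher and 6 were within 2-fold, with a median log2 ratio of 0.19. After scaling to equal sums, or with no pseudocount, Lama4 joined the higher genes. The 11 laminin genes summed to 161 FPKM in ESCs versus 159 FPKM in NCs. The collagens and the laminins thus stood at nearly equal sums in ESCs and far apart in NCs.

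The alpha chains carry the sites that cells bind. Lama5, the most widespread of them, was at 30.5 FPKM in ESCs compared with 28.1 FPKM in NCs, 1.09-fold lower, a direction that turns after scaling to equal sums. Lama1, the alpha chain of the first basement membranes of the embryo, was at 16.5 and 21.1 FPKM, 1.28-fold higher. Lama1 made up 34.0% of all alpha chain FPKM in ESCs and 41.4% in NCs, and Lama5 62.9% and 54.9%. Lama4, known from blood vessels, had 0.742 and 1.53 FPKM (1.93-fold higher). Lama2, the alpha chain of muscle, was at 0.0210 FPKM in ESCs versus 0.121 FPKM in NCs. Of the beta chains, Lamb1 led with 40.7 FPKM in ESCs compared with 46.5 FPKM in NCs (1.14-fold higher), 81.1% and 80.4% of the beta chain sum. Lamb2, the beta chain of the neuromuscular junction and the glomerulus, had 8.46 and 10.8 FPKM (1.28-fold higher). The gamma chain of most laminins, Lamc1, had 59.5 FPKM in ESCs versus 48.8 FPKM in NCs, 1.22-fold lower on the deposited scale and with a log2 ratio of 0.01 after scaling to equal sums.

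Lama3 and Lamb3, chains of the laminin that anchors stratified epithelia, were under the filter and had the lower value in NCs, with 0.778 and 0.225 FPKM for Lama3 and 1.04 and 0.512 FPKM for Lamb3. Lamc3, at 0.124 and 0.214 FPKM, did not share that direction. Summed over their genes, alpha chains stood at 48.6 FPKM in ESCs versus 51.1 FPKM in NCs, and beta chains at 50.2 and 57.9 FPKM. The gamma chains, most of whose FPKM was that of Lamc1, went the other way, with the lower sum in NCs.

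**Figure D3:**
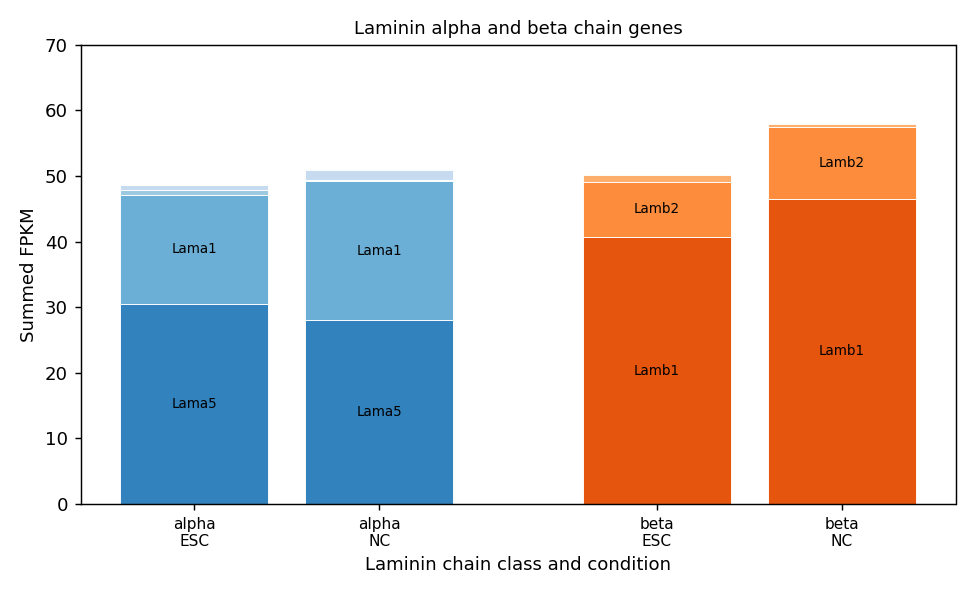
Summed FPKM (linear axis from 0) of the laminin alpha and beta chain genes in ESCs and NCs, with each bar stacked by gene and without error bars since each condition has 1 pooled value. The alpha sum is 48.6 and 51.1 FPKM and the beta sum 50.2 and 57.9 FPKM, and Lama1 takes a larger part of the alpha bar in NCs. The gamma chains, whose sum was lower in NCs, are not drawn.

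The nidogens bind laminin on one side and collagen IV on the other. Both were lower in NCs by almost the same factor. Nid1 (chromosome 13, 13437551 to 13512269) stood at 20.97 FPKM in ESCs compared with 10.0 FPKM in NCs, 2.08-fold lower. Nid2 (chromosome 14, 19751265 to 19811787) was the second most abundant gene of the set in ESCs, at 81.0 FPKM, and stood at 38.1 FPKM in NCs, 2.12-fold lower. The ratio of Nid2 to Nid1 was 3.86 and 3.81. Both lay close to the limit: after scaling to equal sums their log2 ratios were -0.77 (Nid1) and -0.79 (Nid2), still lower in NCs but within 2-fold, and Nid1 was also within 2-fold with a pseudocount of 1 FPKM. Rtraf, on the opposite strand, overlaps 8.45% of the exon bases of Nid2.

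Hspg2 (chromosome 4, 137468769 to 137570630), which encodes perlecan, had 41.0 FPKM in ESCs versus 28.5 FPKM in NCs, 1.43-fold lower. Sparc (chromosome 11, 55394500 to 55423183), a secreted glycoprotein that binds collagens and calcium, was the most abundant of the 59 genes in ESCs, at 142 FPKM, and came second to Col18a1 in NCs, at 181 FPKM (1.27-fold higher). The parts of a basement membrane were thus unequal in direction: collagen IV and Col18a1 were higher in NCs, the main laminin chains were within 2-fold, and the nidogens were lower.

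Collagen chains are hydroxylated, glycosylated, folded and exported by dedicated proteins, then trimmed and crosslinked outside the cell. Of 30 genes for these steps, 24 passed the filter, with a median log2 ratio of 0.16. In NCs 6 of them (25.0%) were higher and 3 (12.5%) lower, against 10.7% and 9.65% of all genes past the filter. Serpinh1, the chaperone that binds the collagen triple helix (HSP47), had 61.2 FPKM in ESCs compared with 157 FPKM in NCs, 2.56-fold higher. Pxdn, the peroxidase that crosslinks collagen IV, had 11.1 and 28.1 FPKM, 2.52-fold higher. Leprel1, a collagen prolyl hydroxylase now named P3h2, had 0.603 and 5.83 FPKM and was 8.43-fold higher, and Loxl3, a lysyl oxidase relative, had 0.314 and 1.74 FPKM and was 4.45-fold higher. Leprel1 and Loxl3 lay under 1 FPKM in ESCs and had passed the filter through their NC value. The 3 genes at least 2-fold lower in NCs were Pcolce, Pcolce2 and Adamts14, all above 1 FPKM in both conditions. Pcolce, an enhancer of propeptide removal, had 33.0 FPKM in ESCs versus 10.1 FPKM in NCs, 3.24-fold lower, and its relative Pcolce2 had 6.03 and 1.89 FPKM, 3.08-fold lower. Adamts14, a propeptide-cleaving protease, had 3.37 and 1.35 FPKM, 2.39-fold lower. Bmp1, another such protease, named after its values were seen, had 2.26 and 5.46 FPKM, 2.35-fold higher. With a pseudocount of 1 FPKM Adamts14 and Bmp1 were within 2-fold, and Adamts14 was also within it after scaling to equal sums. The gene of the list with the highest mean, P4hb, a subunit of the enzyme that makes hydroxyproline, was at the same level in both conditions (214.5 and 215 FPKM). After scaling to equal sums, 8 genes of this list were higher (background 15.9%) and 2 lower (background 6.57%).

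A further 20 genes encode other basement membrane proteins and receptors for them. The 12 past the filter had a median log2 ratio of 0.70. In NCs 5 (41.7%) were higher and 0 lower, against 10.7% and 9.65% of all genes past the filter. Dag1, which encodes the laminin and perlecan receptor dystroglycan, had the highest mean over both conditions, at 43.6 FPKM in ESCs compared with 90.6 FPKM in NCs, 2.08-fold higher. Smoc2, a relative of Sparc, had the largest ratio of the list, 18.0-fold, with 0.214 and 5.54 FPKM. Npnt, an integrin ligand of developing epithelia, had 1.39 and 10.4 FPKM and was 7.02-fold higher. Fras1, a basement membrane protein of the embryonic skin, had 0.377 and 1.87 FPKM (4.12-fold higher), and the proteoglycan gene Sdc2 had 2.66 and 10.8 FPKM (3.95-fold higher). Smoc2 and Fras1 lay under 1 FPKM in ESCs and had passed the filter through their NC value. The counts were 6 and 0 after scaling to equal sums (background 15.9% and 6.57%).

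**Figure D4:**
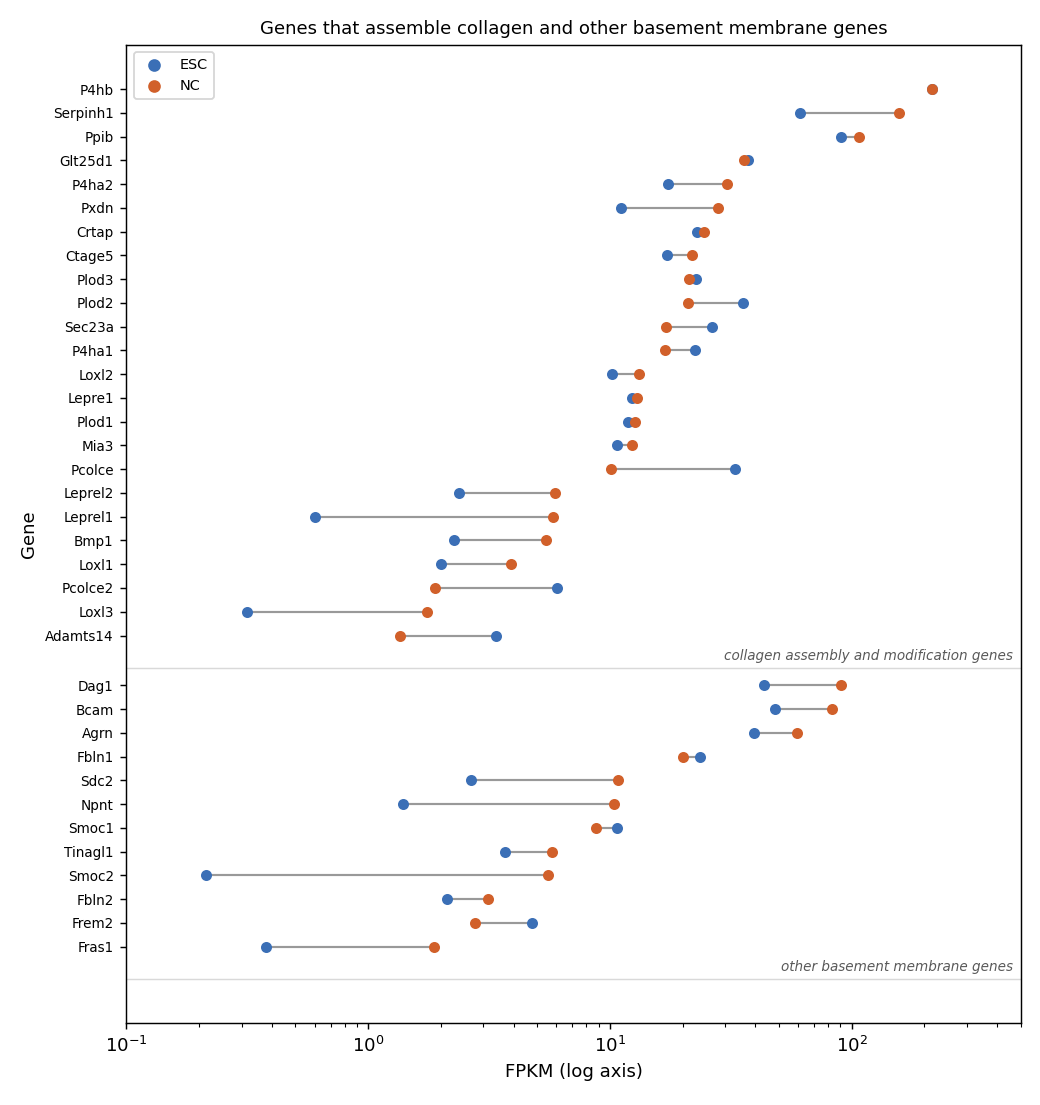
FPKM (log axis) in ESCs (blue) and NCs (orange) of the genes of both lists with a mean FPKM of at least 1, 24 that process collagen and 12 other basement membrane genes, 1 pooled value per condition. Serpinh1, Pxdn and Leprel1 lie to the right in NCs and Pcolce, Pcolce2 and Adamts14 to the left, while P4hb coincides.

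Markers of the labelled cells and of other cell types were read beside these results. Of all genes past the filter, 10.7% were at least 2-fold higher in NCs and 9.65% lower, or 15.9% and 6.57% after scaling to equal sums. Of 10 ESC markers, 9 were at least 2-fold lower in NCs, and their sum was 5790 FPKM in ESCs versus 868 FPKM in NCs. Of 10 neural markers, 8 passed the filter. The progenitor genes Zic1, Pax6 and Sox1 were higher in NCs (Pax6 3.64 and 65.2 FPKM), and the neuronal genes Tubb3 (33.4 and 7.54 FPKM) and Nefl (5.04 and 1.56 FPKM) were lower, for a list sum of 60.1 and 126 FPKM. Extraembryonic endoderm is known for large amounts of collagen IV, laminin and Sparc. Of its 14 markers, 10 passed the filter, 5 were higher in NCs and 0 were lower, and the list summed to 56.1 FPKM in ESCs compared with 73.9 FPKM in NCs. With a pseudocount of 1 FPKM 3 of them were higher, and after scaling to equal sums 7 were. Foxa2 had 0.617 and 5.24 FPKM, passing the filter through its NC value. Gata6 had 2.37 and 5.48 FPKM and was within 2-fold with a pseudocount of 1 FPKM. Gata4 was nearly equal, at 3.30 and 3.69 FPKM. Of the 10, 8 had the larger value in NCs and 2 the lower, Krt19 (31.5 and 23.6 FPKM) and Amn (3.07 and 2.87 FPKM). Under the filter, Hnf4a (1.21 and 0.430 FPKM) and Thbd (0.258 and 0.126 FPKM) were lower in NCs, and Afp and Ttr were higher. No marker of that list was at 0, and the lowest was Afp, at 0.0161 and 0.0871 FPKM. Their part in the result was not tested.

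Fibroblasts and mesenchyme are the usual source of fibrillar collagens. Of 10 markers of these cells, 5 passed the filter, of which Twist1 (1.76 and 14.4 FPKM) and Dcn (0.144 and 2.13 FPKM) were higher in NCs and Thy1 (9.64 and 1.80 FPKM) was lower. That list summed to 26.5 FPKM in ESCs versus 33.2 FPKM in NCs, and Lum and Fap were listed at 0 in ESCs. The higher sum rested on Twist1, without which the list had the lower sum in NCs. Dcn had passed the filter through its NC value. Of the 5, 3 had the larger value in NCs and 2 the lower, Thy1 and Acta2 (12.2 and 10.3 FPKM). Under the filter, Postn (0.231 and 0.0983 FPKM) and S100a4 (0.469 and 0.140 FPKM) were lower in NCs, and Lum, Prrx1 and Fap were higher. For endothelium, 2 of 8 markers passed, Tek and Vwf, and both were at least 2-fold lower in NCs, but Tek, at 3.34 and 1.59 FPKM (2.03-fold lower), was within 2-fold with a pseudocount of 1 FPKM, after scaling to equal sums and after centring on the median. The endothelial list had a sum of 7.58 FPKM in ESCs compared with 4.84 FPKM in NCs. That lower sum came from Tek and Vwf alone. The 6 markers under the filter each had the larger value in NCs. They ranged from Cdh5, nearly equal at 0.291 and 0.297 FPKM, to Emcn at 0.0917 and 0.421 FPKM and Erg at 0.0356 and 0.265 FPKM. The part of these cell types in the result was not tested either.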

How the data were processed

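Total RNA from 3 ESC and 3 NC samples was made into TruSeq libraries and sequenced on an Illumina HiSeq instrument. Per the submitters' processing notes, the authors used TopHat2 2.0.8, Bowtie2 2.1.0, Cufflinks 2.0.2 and Cuffdiff with mm10. Whether the counting used strand is not given in the sources used here. The authors deposited 1 table with 1 FPKM value per gene and condition, estimated from the samples together. The heading of the NC column reads FPK and was taken as FPKM. The table's other columns hold the authors' own fold change, test statistic, p-value, q-value and calls, and were not used.

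Genes were taken by symbol from 23235 entries. For 160 names with several entries, none of them in the set, the entry with the largest mean was kept, or the entries were summed as an alternative. The log2 ratio of NC to ESC was computed with a pseudocount of 0.1 FPKM, a minimum mean of 1 FPKM and a 2-fold limit, with no test. The rule named all genes of the set, and from each list the 4 largest ratios past the limit in each direction and the most abundant gene. A few of these genes are not reported here. The genes and lists were chosen with earlier results of these data known. Positions and overlaps came from GENCODE M21 on GRCm38. Alternatives were other pseudocounts, minimums and fold limits, scaling to equal sums and centring on the median. The computation was tested on simulated data. Python 3.11.15, numpy 2.4.6, pandas 2.3.3, scipy 1.17.1 and matplotlib 3.10.9 were used.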

Additional observations from a re-analysis of the deposited data

How the results depend on the processing

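The 16 higher and 4 lower genes of the set became 7 and 2 with a mean FPKM of at least 5, and 6 and 1 with a limit of 4-fold. Scaling to equal sums left 2 lower. The median log2 ratio, 0.99 as reported, was 0.63 with a pseudocount of 1 FPKM, 0.76 with no filter, 0.35 with a mean FPKM of at least 5 and 1.29 after scaling to equal sums. Of the interstitial matrix genes, 1 in place of 2 was lower with a pseudocount of 1 FPKM, and of the proteases and inhibitors 1 in place of 3 after scaling. With a pseudocount of 1 FPKM, Col27a1, Col22a1, Col6a1 and Nid1 were within 2-fold. No alternative reversed a difference of at least 2-fold. Another 43 summary values and 182 values of single genes or marker lists stayed close to those reported (counts, shares and single ratios within 1.5 times, medians within 0.1 on the log2 scale), and 13 values of single genes or marker lists did not. Many of these could not differ. Summing entries leaves the ratios of the set unchanged, centring moves all ratios by the same small amount, and scaling cannot alter shares. All single ratios that did not stay close moved with a pseudocount of 1 FPKM. Asking for at least 30 fragments, a choice made after seeing the data, left the 16 higher genes at 16. It could not do otherwise, since the fewest fragments over both conditions among genes of the set past the filter were 840. No paired analysis was possible because the table holds 1 pooled value per condition, and for the same reason no replicate could be left out. Values under the level of 3 fragments cannot be told from 0 at this depth.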

Other observations

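Matrix genes outside basement membranes also differed between the conditions. Of 20 genes of the interstitial matrix, 15 passed the filter, with a median log2 ratio of 1.09. In NCs 8 of them (53.3%) were at least 2-fold higher and 2 (13.3%) lower, against 10.7% and 9.65% of all genes past the filter. Of the higher genes, Tnc, Fbn1, Fbn2, Dcn and Efemp1 lay under 1 FPKM in ESCs and had passed the filter through their NC value. Eln, counted as lower, had passed through its ESC value. The filter thus bears on these shares. Genes of elastic microfibrils were among the higher ones. Fbn2, the fibrillin of embryonic tissue, had 0.425 FPKM in ESCs versus 9.73 FPKM in NCs, 18.7-fold higher. Mfap2, a microfibril component, had 4.51 and 23.3 FPKM, 5.07-fold higher, and Efemp1, a fibulin, had 0.963 and 10.4 FPKM, 9.83-fold higher. Dcn, a collagen-binding proteoglycan that is also on the fibroblast list, was 9.13-fold higher. Fn1, which encodes fibronectin and was the most abundant gene of the list, went the other way, with 154.6 FPKM in ESCs compared with 42.5 FPKM in NCs, 3.63-fold lower. Eln, the gene of elastin, had 2.03 and 0.592 FPKM, 3.08-fold lower, but was within 2-fold with a pseudocount of 1 FPKM.

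Of 16 genes for matrix proteases and their inhibitors, 12 passed the filter. In NCs 5 (41.7%) were higher and 3 (25.0%) lower, against 10.7% and 9.65% of all genes past the filter. Plat, the tissue plasminogen activator, had 1.56 FPKM in ESCs versus 24.2 FPKM in NCs, 14.6-fold higher. Adamts1 was 8.23-fold higher (0.923 and 8.32 FPKM) and the membrane-type protease Mmp15 was 2.95-fold higher (4.11 and 12.3 FPKM). Some counted genes of this list, such as Adamts1, lay under 1 FPKM in 1 condition and had passed the filter through the other one. The inhibitors of metalloproteases differed in direction, with Timp2 at 4.46 and 12.02 FPKM (2.66-fold higher) and Timp1 at 20.8 and 9.39 FPKM (2.20-fold lower). After scaling to equal sums Timp1 was within 2-fold. Mmp11 stood at 21.9 and 10.8 FPKM, 2.02-fold lower and next to the limit. It was within 2-fold after scaling to equal sums or with a pseudocount of 1 FPKM. Mmp2, which cleaves denatured collagen and collagen IV and was the most abundant gene of the list, had 24.4 FPKM in ESCs compared with 34.4 FPKM in NCs, within 2-fold. Each of these values is a single pooled one with no replicate check.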
